A study of Homo sapiens with 4 samples.

Results

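The genes described here encode the subunits of ligand-gated ion channels: GABA-A, glycine, nicotinic acetylcholine, ionotropic glutamate, P2X and 5-HT3 receptors. They were chosen by symbol from the protein-coding genes of the GENCODE annotation (human build hg38) and joined to the count table by Ensembl identifier. The choice used no measured value, although it was made with earlier results of these data known. It took 70 of the 64252 genes in the table: 19 of the GABA-A family, 19 of the ionotropic glutamate family, 16 nicotinic, 7 P2X, 5 of the 5-HT3 family and 4 glycine receptor genes. One of the glutamate group, GRID2IP, encodes a binding protein of a delta receptor and not a channel, and was taken because its symbol fits.

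Ligand-gated channels are assembled from several subunits around a central pore, and the choice of subunits sets which transmitter opens the channel, which ions pass and how long it stays open. Nicotinic, glutamate, P2X and 5-HT3 channels pass cations, whereas GABA-A and glycine channels pass chloride. Neuroblastoma arises from the sympathoadrenal lineage of the neural crest, and sympathetic ganglion neurons are known for nicotinic receptors built from the alpha3 and beta4 subunits, whose genes lie beside CHRNA5, an accessory subunit gene.

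The libraries are RNA-seq of SK-N-BE(2), a line of human neuroblastoma cells with many copies of MYCN. The control group, sh-Scb, carried a scramble shRNA, and the knockdown group, sh-SAPCD2, an shRNA against SAPCD2. Each group had 2 libraries, made from total RNA. Per the study's methods, shRNAs were delivered by lentivirus and stable cells were selected with puromycin, so both groups carried a vector and had been selected. The labels do not say whether the 2 libraries of a group came from separate cultures or separate infections. The p-values below therefore measure the spread between these libraries, which may be technical. The labels do not number the shRNA either, while the study's own display of these libraries names sh-SAPCD2 #1.

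Libraries held 25347900 to 31850997 counts, and 3 counts, the amount taken here as the floor of detection, equalled 0.0955 to 0.119 CPM (counts relative to the library total, scaled by TMM). SAPCD2 had 2308 and 2263 counts in the sh-Scb libraries and 895 and 1648 in the sh-SAPCD2 libraries. In CPM this was 83.5 and 82.2 against 35.4 and 52.5, with no overlap between the groups and a wide gap between the sh-SAPCD2 libraries. The log2 fold change of sh-SAPCD2 over sh-Scb was −0.91 (SE 0.193, adjusted p = 0.0206, edgeR quasi-likelihood test), and the adjusted p was 0.0749 when low-count genes were kept in the test. The labelled cell type was checked against markers: 14 of 14 adrenergic neuroblastoma markers were tested and, summed without MYCN, reached 3214 to 4176 CPM in each library. Of them 1, MYCN, was called higher and 6 lower in sh-SAPCD2, among these ISL1, TBX2, DBH and CHGB. Of 12 mesenchymal-type markers, 2 were higher and 3 lower, their sum was 1706 and 1692 CPM in sh-Scb and 932.7 and 1016 in sh-SAPCD2, and the regulator PRRX1 had no counts. Of the Schwann cell, fibroblast or endothelial, and leukocyte markers 1 each was higher and 0 lower, and of the astrocyte and central neuron markers 0 were called (edgeR, with 0 at an unadjusted p under 0.05 and 0 by DESeq2). SOX10 and CDH19, CD3E, LYZ and ITGAM, and NEUROD6, TBR1 and GAD2 had no counts. Other markers of the same lists had counts. The 8 fibroblast or endothelial markers summed to 179.8 and 198.7 CPM in sh-Scb and 222.6 and 170.8 in sh-SAPCD2. Of these, LUM was at 139.3 and 154.8 CPM in sh-Scb and 185.2 and 134.4 in sh-SAPCD2. DCN was at 28.96 and 30.86 against 26.55 and 21.84 CPM. The leukocyte marker PTPRC was at 9.702 and 8.94 against 12.36 and 10.64 CPM. The part of these marker differences in the channel results was not tested. In a culture measured in bulk, fewer cells with a transcript and less of it in each cell cannot be told apart.

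Of the 70 genes, 14 had no count in any library, 7 had counts only under the floor of 3, 18 reached the floor in at least 1 library but were too low to be tested, and 31 were tested. The largest count of an untested gene in a library was 16. The genes with no count included GABRA2, GABRA6, GABRB2, GABRG1, GABRD and GABRR3 of the GABA-A family, GRIN2A and GRIN2B of the NMDA receptors, CHRNB3, P2RX1, and HTR3C, HTR3D and HTR3E. GRIN2A and GRIN2B encode the main NMDA receptor subunits of forebrain neurons, and GRIA1, an AMPA receptor subunit, held 2 counts in 1 library and none in the others. At this depth such genes were at or under the floor, which does not show that they are absent. Of the 5 muscle-type nicotinic genes, CHRNA1, CHRND, CHRNE and CHRNG were under the test's limit, with 0 to 12 counts per library.

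With a floor of 10 counts in place of 3, 37 genes reached it in at least 1 library, against 49. Tested genes made up 5 of 19 in the GABA-A family, 11 of 19 in the glutamate family, 7 of 16 nicotinic, 5 of 7 P2X, 2 of 4 glycine and 1 of 5 of the 5-HT3 genes. Their mean levels ran from 0.357 CPM for P2RX3 to 294 CPM for CHRNA3. Of the 31 tested genes, 20 overlap another annotated gene, and reads could be shared with it. GABRR2 passed the limit through the sh-SAPCD2 libraries alone. Because of this filter, the counts below describe the tested genes and are not evidence about all 70.

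Among the 31 tested genes, 2 were higher in sh-SAPCD2 at an adjusted p under 0.05 (GRIN2D and GABRR2), where 12.4% of all 18779 tested genes were higher. Another 4 were lower (GABRQ, GABRA4, CHRNB4 and P2RX7), where 12.5% of all tested genes were lower. With the study's added limit of an absolute log2 fold change over 1, GRIN2D and GABRR2 remained on the higher side (background 4.69%) and GABRQ and GABRA4 on the lower side (background 5.15%). In both directions together, 19.4% of tested channel genes were called, against 24.8% of all tested genes and 29.1% of the protein-coding ones. The libraries of the groups did not overlap for 12 genes that were higher (background 33.5%) and 8 that were lower (background 33.4%). These shares lie near the background. The median log2 fold change was 0.17 over the tested channel genes and 0.02 over all tested genes, and 19 of the 31 had an absolute log2 fold change under 0.5. For a single gene taken alone, an exact permutation test of 2 libraries against 2 cannot give a two-sided p below 0.333, so all p-values come from the fit over all genes.

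**Figure D1:**
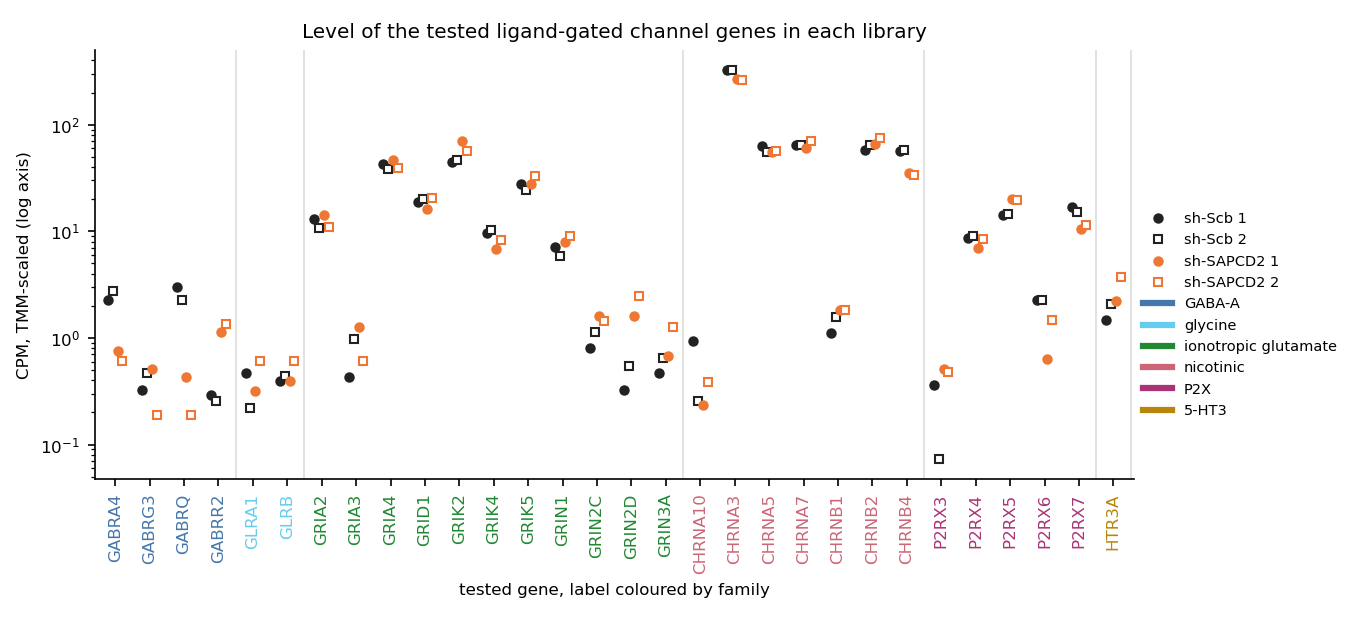
TMM-scaled CPM (log axis) of 30 tested channel genes in each of the 4 libraries, with gene labels coloured by family and each library marked by its own symbol. CHRNA3 stood highest in every library, and the sh-Scb and sh-SAPCD2 points of GABRQ, GABRA4, GABRR2 and GRIN2D were far apart.

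Nicotinic receptor genes carried most of the channel transcript signal. Measured as CPM per kilobase of exon, so that genes of different length can be compared, the 16 nicotinic genes made up 77.9% of the summed level of the 70 genes in sh-Scb and 73.3% in sh-SAPCD2. The 3 genes CHRNA5, CHRNA3 and CHRNB4, which lie side by side on chromosome 15, made up 67.8% and 60.9%. In sh-Scb, the order per kilobase was CHRNA3, CHRNA5, CHRNB4 and CHRNB2, and in sh-SAPCD2 CHRNB2 stood above CHRNB4. This order rests on the length of merged exons: with that of the canonical transcript, CHRNB4 stood above CHRNA5 and CHRNA7 above CHRNB2 in sh-Scb.

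CHRNA3 (ENSG00000080644, chr15:78593052-78621295, minus strand) encodes the alpha3 subunit, which forms the acetylcholine binding site of the ganglionic receptor. It had 8968 and 8976 counts in sh-Scb and 6765 and 8145 in sh-SAPCD2, or 324.6 and 326 CPM against 267 and 259 CPM. Both sh-SAPCD2 libraries were below both controls, by a small margin. Its log2 fold change was −0.31 (95% interval −0.53 to −0.08), and its adjusted p of 0.0562 missed the threshold. It passed at 0.0386 when protein-coding genes alone were tested. It also passed at 0.0453 with a mean of at least 1 CPM and at 0.00893 with the correction for GC content and length. Over the settings that kept all libraries, its adjusted p ran up to 0.153. Per kilobase of exon, CHRNA3 stood at 68.3 ± 0.233 CPM in sh-Scb and 55.3 ± 1.17 in sh-SAPCD2 (SD, n = 2), the highest of all 70 genes in both groups.

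CHRNB4 (ENSG00000117971, chr15:78624111-78727754, minus strand) encodes the beta4 subunit, the usual partner of alpha3 in ganglia. It held 1553 and 1579 counts in sh-Scb and 900 and 1062 in sh-SAPCD2. In CPM, the controls were at 56.2 and 57.4 and the knockdown libraries at 35.55 and 33.8, so the groups were well separated and each was tight. Its log2 fold change was −0.71 (SE 0.115, 95% interval −0.99 to −0.43, adjusted p = 0.00967), a level 1.64-fold lower. Without sh-Scb library 1 the adjusted p was 0.0865, and without sh-Scb library 2 it was 0.106, at log2 fold changes of −0.73 and −0.70. Pseudogenes lie within the annotated span of CHRNB4.

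CHRNA5, the accessory subunit gene beside CHRNA3, did not follow CHRNB4. Its level was 63.3 and 55.4 CPM in sh-Scb and 55.9 and 56.1 CPM in sh-SAPCD2, with overlapping groups (log2 fold change −0.08, 95% interval −0.38 to 0.21, adjusted p = 0.64). CHRNA5 and CHRNA3 lie on opposite strands and overlap by 2218 bases, and whether reads were counted by strand is not stated, so reads in the overlap cannot be assigned with certainty. The 3 neighbours thus had log2 fold changes of −0.08, −0.31 and −0.71, of which that of CHRNB4 alone passed the test. Whether these values differ from each other was not tested.

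CHRNB2 encodes the beta2 subunit, which pairs with alpha4 in brain and with alpha3 in some ganglionic receptors. Its mean level was 61.4 ± 4.84 CPM in sh-Scb and 69.9 ± 6.44 CPM in sh-SAPCD2 (SD, n = 2, log2 fold change 0.19, adjusted p = 0.315). Per kilobase, CHRNB4 made up 53.4% and 51.1% of the neuronal beta subunit signal in the sh-Scb libraries and 39.1% and 34.9% in the sh-SAPCD2 libraries. By the same measure, the ratio of CHRNB4 to CHRNB2 was 1.14 and 1.04 in sh-Scb and 0.642 and 0.536 in sh-SAPCD2. Which beta subunit led depended on the length used: with the length of the canonical transcript, CHRNB4 made up 67.6% in sh-Scb and 52.9% in sh-SAPCD2, and so stayed ahead in both groups. Per kilobase of merged exons, the ratio of CHRNB4 to CHRNA3 was 0.165 and 0.168 in sh-Scb and 0.127 and 0.125 in sh-SAPCD2.

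The gene of the alpha7 subunit, CHRNA7, which forms channels of a single subunit kind, was at 64.7 CPM in both sh-Scb libraries and 60.2 and 69.9 CPM in sh-SAPCD2 (log2 fold change 0.01, 95% interval −0.29 to 0.30). CHRFAM7A, a fusion gene holding a near-identical copy of part of CHRNA7, had 445 to 585 counts per library, so the division of reads between them is uncertain. CHRNA10, a subunit of hair cell receptors, held 26 and 7 counts in sh-Scb and 6 and 12 in sh-SAPCD2, and lies partly within NUP98 on the same strand. CHRNB1, the muscle-type beta1 subunit, had 31 to 57 counts per library and a log2 fold change of 0.43 (adjusted p = 0.352). The alpha4 gene CHRNA4, the main brain partner of CHRNB2, reached 2 counts in 1 library and 0 in the others.

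The promoters of CHRNA3 and CHRNB4 are shown because the neighbours share a strand and sit a short way apart. CHRNB4 passed the test and CHRNA3, also lower, narrowly missed it, and whether their changes differ was not tested. Both come from the RefSeq promoter table (GRCh38.p14), cover 250 bases before to 50 after the RefSeq start and are written 5′ to 3′ on the minus strand. CHRNA3 spans chr15:78620947-78621246 and CHRNB4 spans chr15:78641161-78641460. Capitals mark GGGCGG, the core of SP1 sites, and CAGCTG, an E-box, on either strand.
CHRNA3: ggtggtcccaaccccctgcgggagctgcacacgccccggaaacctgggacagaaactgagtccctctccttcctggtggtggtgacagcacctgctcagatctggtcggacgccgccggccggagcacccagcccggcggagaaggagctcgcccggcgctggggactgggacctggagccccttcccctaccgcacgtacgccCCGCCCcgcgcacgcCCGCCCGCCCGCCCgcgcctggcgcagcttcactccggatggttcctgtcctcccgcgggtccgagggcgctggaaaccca
CHRNB4: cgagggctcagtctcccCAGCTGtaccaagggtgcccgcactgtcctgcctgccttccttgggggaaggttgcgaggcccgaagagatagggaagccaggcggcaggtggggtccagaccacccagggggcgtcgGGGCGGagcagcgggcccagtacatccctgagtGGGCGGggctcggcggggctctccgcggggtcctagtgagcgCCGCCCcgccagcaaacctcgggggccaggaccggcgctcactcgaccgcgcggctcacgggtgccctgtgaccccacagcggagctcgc
Both windows have a GC content of 72.7%. CHRNA3 held 4 copies of the SP1 core and no CAGCTG, and CHRNB4 held 3 copies of the core and 1 CAGCTG.

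Among the GABA-A genes, the lowest and the highest log2 fold changes went to subunits of low level. Of the 5 tested genes, GABRQ and GABRA4 fell and GABRR2 rose. This was 60% of the tested GABA-A genes, against 24.8% of all tested genes. With 5 genes, the share was not tested.

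GABRQ (ENSG00000268089, chrX:152637895-152657542, plus strand) encodes the theta subunit, known from monoamine-rich brain regions. It had 83 and 63 counts in sh-Scb and 11 and 6 in sh-SAPCD2. Expressed as CPM, this was 3.01 and 2.29 against 0.434 and 0.191, so that the lower control was over 5 times the higher knockdown library. This gave a log2 fold change of −3.10 (SE 0.457, 95% interval −4.21 to −1.99, adjusted p = 0.00753), a level 8.58-fold lower. GABRQ overlaps no other annotated gene, and it passed the threshold under 13 of 13 alternative settings, at log2 fold changes from −3.77 to −2.59.

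GABRA4 (ENSG00000109158, chr4:46918900-46993581, minus strand) encodes the alpha4 subunit, found in extrasynaptic receptors. Its counts were 63 and 75 in sh-Scb and 19 in each sh-SAPCD2 library, or 2.28 and 2.73 CPM against 0.751 and 0.605 CPM. Again the groups did not overlap, and the libraries of each group lay close together. GABRA4 had a log2 fold change of −1.89 (SE 0.323, 95% interval −2.67 to −1.10, adjusted p = 0.0113), a level 3.69-fold lower, and all 13 alternatives kept it under the threshold. It overlaps no other annotated gene. GABRA4 starts 142 bases from GABRB1, head to head on chromosome 4, and GABRB1 held 7, 5, 3 and 5 counts, too few to be tested. GABRG1 and GABRA2, the other genes of that cluster, had no counts.

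GABRR2 (ENSG00000111886, chr6:89254464-89315299, minus strand) encodes the rho2 subunit, whose channels are best known from retina. It held 8 and 7 counts in sh-Scb and 29 and 42 in sh-SAPCD2, or 0.290 and 0.254 CPM against 1.15 and 1.34 CPM. Both control libraries were low but above the floor and both knockdown libraries were several times higher. The log2 fold change was 2.17 (SE 0.423, 95% interval 1.15 to 3.20, adjusted p = 0.0162), or 4.52-fold higher. GABRR2 passed the limit for a test through the sh-SAPCD2 libraries alone. The filter thus favoured a rise, and this call describes the gene without being independent support for a rise. Without sh-Scb library 1 its adjusted p was 0.0508, and without sh-Scb library 2 it was 0.0705. DESeq2, the study's own tool, gave GABRR2 no adjusted p, and a filter at a mean of 1 CPM left it untested. Its neighbour GABRR1 had at most 3 counts in any library.

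GABRG3, a gamma subunit gene on chromosome 15, held 6 to 13 counts per library (log2 fold change −0.21, 95% interval −1.79 to 1.36). GABRA3, an alpha subunit gene of the GABRQ cluster on chromosome X, had 7 and 12 counts in sh-Scb and 2 in each sh-SAPCD2 library, below the limit for a test.

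The promoter of GABRQ is given because this gene had the largest fall of the tested channel genes. It covers chrX:152637645-152637944 on the plus strand (RefSeq, GRCh38.p14), with GGGCGG and CAGCTG in capitals on either strand. The run of capitals that ends in TCC joins CAGCTG to the overlapping reverse complement of GGACAGC, the core of one arm of an RE1 site.
GABRQ: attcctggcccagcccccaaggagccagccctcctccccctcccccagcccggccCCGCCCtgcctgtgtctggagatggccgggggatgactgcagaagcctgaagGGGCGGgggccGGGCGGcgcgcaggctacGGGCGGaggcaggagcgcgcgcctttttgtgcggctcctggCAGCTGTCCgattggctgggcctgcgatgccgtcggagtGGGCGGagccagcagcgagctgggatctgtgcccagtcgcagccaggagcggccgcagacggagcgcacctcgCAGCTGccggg
This window held 5 copies of GGGCGG and 2 of CAGCTG. The promoter windows of GABRA4 and GABRR2 held none of the motifs searched.

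Ionotropic glutamate receptor genes were measured in all of their classes. GRIN2D was the single one of 11 tested genes to pass the test, or 9.09%, against 24.8% of all tested genes. Among the NMDA receptor genes, all 4 tested (GRIN1, GRIN2C, GRIN2D and GRIN3A) had a log2 fold change above 0 and groups that did not overlap, with a median of 0.73, although 3 of them missed the threshold and 33.5% of all tested genes were higher without overlap.

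GRIN2D (ENSG00000105464, chr19:48393668-48444931, plus strand) encodes the GluN2D subunit, known from early development and interneurons. It held 9 and 15 counts in sh-Scb and 41 and 77 in sh-SAPCD2. The levels were 0.326 and 0.545 CPM against 1.62 and 2.45 CPM, and the lower knockdown library was well above the higher control. GRIN2D had a log2 fold change of 2.22 (SE 0.433, 95% interval 1.17 to 3.27, adjusted p = 0.0164), or 4.66-fold higher. GRIN2D overlaps no annotated gene. Across the alternative settings its log2 fold change ran from 1.76 to 2.63, with adjusted p from 0.000273 to 0.05.

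GRIN1 encodes the GluN1 subunit that every NMDA receptor needs. It was at 6.47 ± 0.880 CPM in sh-Scb and 8.52 ± 0.825 CPM in sh-SAPCD2 (SD, n = 2, log2 fold change 0.40, 95% interval −0.08 to 0.87, adjusted p = 0.187). With the correction for GC content and length, the log2 fold change of GRIN1 was 0.06 (adjusted p = 0.835). Per kilobase, GRIN1 made up 75.4% and 63.1% of the NMDA receptor signal in the sh-Scb libraries and 55.0% and 51.8% in the sh-SAPCD2 libraries. GRIN2D made up 6.94% and 11.8% in sh-Scb and 22.5% and 27.9% in sh-SAPCD2. These shares depended on the length used. With the length of the canonical transcript, GRIN1 made up 84.1% and 75.0% in sh-Scb and 69.8% and 68.8% in sh-SAPCD2. By that length GRIN2D made up 3.07% and 5.55% in sh-Scb and 11.3% and 14.7% in sh-SAPCD2. Per kilobase of merged exons, the ratio of GRIN2D to GRIN1 was 0.0920 and 0.187 in sh-Scb and 0.409 and 0.539 in sh-SAPCD2. GRIN2C, the GluN2C gene, was at 0.961 ± 0.234 and 1.53 ± 0.132 CPM (log2 fold change 0.66, adjusted p = 0.214), and GRIN3A at 0.562 ± 0.130 and 0.973 ± 0.426 CPM (log2 fold change 0.80, adjusted p = 0.271).

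The GRIN2D promoter is shown as that of the gene with the largest rise. It covers chr19:48393418-48393717 on the plus strand (RefSeq, GRCh38.p14), with the SP1 core in capitals.
GRIN2D: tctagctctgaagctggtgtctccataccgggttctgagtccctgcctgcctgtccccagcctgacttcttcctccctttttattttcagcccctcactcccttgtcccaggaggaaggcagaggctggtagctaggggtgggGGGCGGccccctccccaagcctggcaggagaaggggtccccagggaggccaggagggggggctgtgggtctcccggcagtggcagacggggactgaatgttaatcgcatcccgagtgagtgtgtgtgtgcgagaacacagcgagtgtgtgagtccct
It held 1 copy of GGGCGG and no CAGCTG.

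AMPA receptors carry fast glutamate transmission, and their subunit make-up was nearly the same in both groups. GRIA4 made up 80.2 ± 0.264% of the AMPA signal per kilobase in sh-Scb and 79.9 ± 1.49% in sh-SAPCD2 (SD, n = 2), and GRIA2, which lowers calcium entry, 17.5 ± 1.15% and 17.3 ± 0.355%. Log2 fold changes were 0.09 for GRIA4 (95% interval −0.26 to 0.44), 0.07 for GRIA2 (−0.40 to 0.55) and 0.38 for GRIA3 (−1.02 to 1.78). The intervals for GRIA4 and GRIA2 leave out a change of 1 in either direction on this scale, and that of GRIA3, at 12 to 32 counts per library, does not.

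The kainate receptor gene GRIK5 (ENSG00000105737, chr19:41998321-42070206, minus strand), for a subunit with high affinity that needs a partner, was the highest glutamate receptor gene per kilobase in sh-Scb, at 4.52 ± 0.418 CPM per kilobase. It held 761 and 665 counts in sh-Scb and 709 and 1042 in sh-SAPCD2, or 27.5 and 24.2 CPM against 28.0 and 33.2 CPM. The groups touched closely without overlap, and the log2 fold change of 0.24 (adjusted p = 0.282) did not pass. GRIK2, which can form channels alone, was at 45.7 ± 0.922 CPM in sh-Scb and 63.2 ± 10.1 CPM in sh-SAPCD2. Its log2 fold change was 0.47 (SE 0.143, 95% interval 0.12 to 0.81, adjusted p = 0.0606). That call changed with the processing: DESeq2 gave an adjusted p of 0.022 and the correction for GC content and length 0.00179. With the length of the canonical transcript, GRIK2 in place of GRIK5 led the kainate group, at 56.4% in sh-Scb and 61.9% in sh-SAPCD2.

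GRIK4, another high-affinity subunit, was at 9.94 ± 0.335 and 7.56 ± 0.971 CPM (log2 fold change −0.39, 95% interval −0.83 to 0.04, adjusted p = 0.161). GRID1, a delta receptor gene, was at 19.5 ± 1.03 and 18.3 ± 3.13 CPM (log2 fold change −0.09, adjusted p = 0.723). GRIK1 and GRIK3 stayed below the limit for a test, with 2 to 16 counts per library.

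P2X receptors are channels opened by extracellular ATP, and 5 of their 7 genes were tested. P2RX7 (ENSG00000089041, chr12:121132819-121188032, plus strand), whose product needs high ATP and is known for immune signaling and for effects on tumor cell growth, had 467 and 416 counts in sh-Scb and 264 and 359 in sh-SAPCD2. In CPM, 16.9 and 15.1 stood against 10.4 and 11.4, without overlap. P2RX7 had a log2 fold change of −0.55 (SE 0.156, 95% interval −0.93 to −0.17, adjusted p = 0.0489). This call lay at the threshold: the adjusted p was 0.394 without sh-Scb library 1, 0.21 without sh-Scb library 2, 0.0735 with DESeq2 and 0.109 when low-count genes were kept.

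P2RX5 (ENSG00000083454, chr17:3672199-3696240, minus strand) was the highest P2X gene per kilobase. It held 392 and 403 counts in sh-Scb and 509 and 616 in sh-SAPCD2, or 14.2 and 14.7 CPM against 20.1 and 19.6 CPM. Both knockdown libraries were above both controls, with a log2 fold change of 0.46 (95% interval 0.13 to 0.80) and an adjusted p of 0.0554. The readthrough gene P2RX5-TAX1BP3, which shares its exons, had 79, 78, 79 and 196 counts, so some reads may belong to it. Per kilobase, P2RX5 made up 43.4 ± 1.88% of the P2X signal in sh-Scb and 59.6 ± 3.58% in sh-SAPCD2, and P2RX7 35.0 ± 2.03% and 23.8 ± 0.533% (SD, n = 2). With the length of the canonical transcript, P2RX5 made up 43.6% and 57.8%. By that length P2RX7, at 19.5% and 12.8%, stood behind P2RX4, at 31.2% and 26.2%.

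P2RX4, the neighbour of P2RX7 on chromosome 12, was at 8.83 ± 0.358 and 7.73 ± 1.10 CPM (log2 fold change −0.19, 95% interval −0.64 to 0.26). P2RX6 had 63 counts in each sh-Scb library and 16 and 46 in the sh-SAPCD2 libraries. Its log2 fold change was −1.10 (95% interval −2.13 to −0.07, adjusted p = 0.11), and the knockdown libraries differed from each other about as much as the nearer one differed from the controls. P2RX3, the sensory neuron subunit gene, had 2 to 15 counts per library (log2 fold change 1.17, 95% interval −0.62 to 2.96).

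Glycine and 5-HT3 receptor genes were near the lower end. GLRA1 (ENSG00000145888, chr5:151822513-151924851, minus strand), the alpha1 glycine receptor gene, held 13 and 6 counts in sh-Scb and 8 and 19 in sh-SAPCD2, with overlapping groups and a log2 fold change of 0.43 (95% interval −1.08 to 1.95). GLRB, for the beta subunit that anchors the receptor at synapses, held 10 to 19 counts per library (log2 fold change 0.27). HTR3A (ENSG00000166736, chr11:113975075-113990313, plus strand), the subunit that every 5-HT3 receptor needs, held 41 and 57 counts in sh-Scb and 56 and 117 in sh-SAPCD2, or 1.48 and 2.07 CPM against 2.21 and 3.72 CPM. Its groups did not overlap, but the nearest libraries were close (log2 fold change 0.75, 95% interval −0.12 to 1.61, adjusted p = 0.175). HTR3B had 0 to 6 counts.

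**Figure D2:**
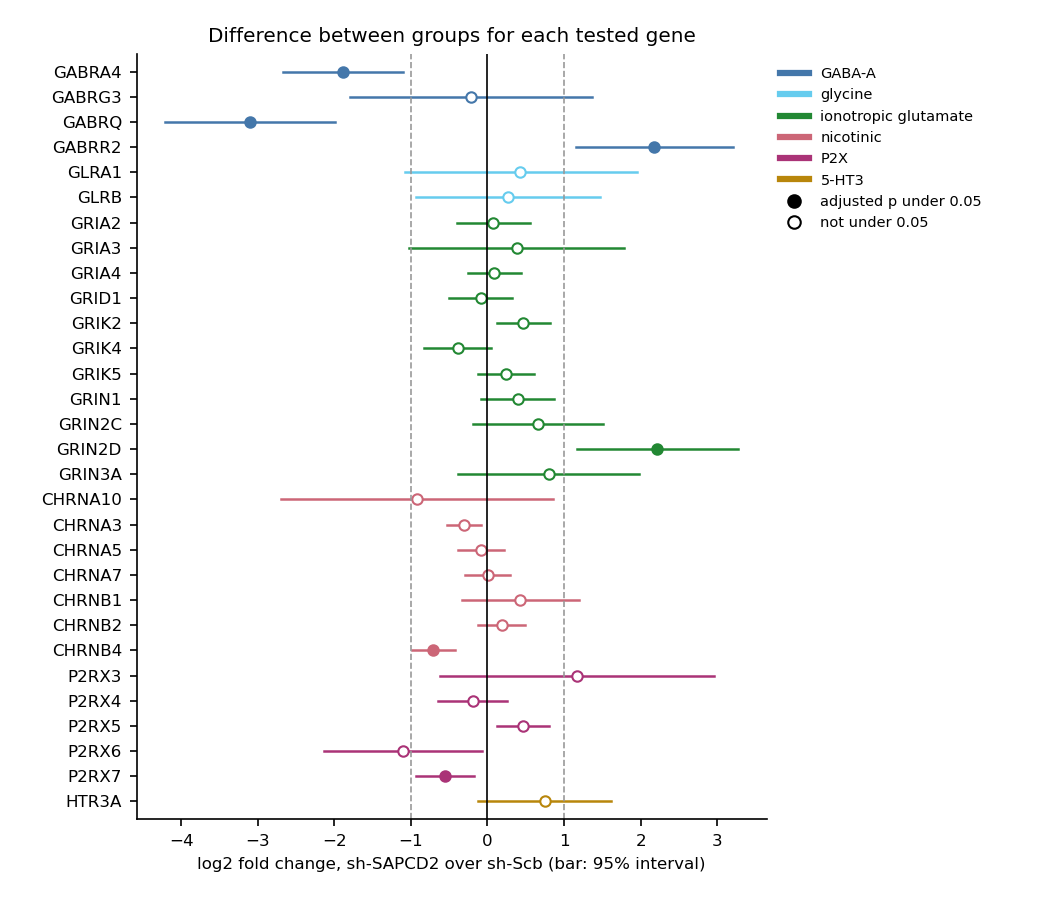
Log2 fold change of sh-SAPCD2 over sh-Scb for 30 tested channel genes, with bars for the 95% interval, filled points for an adjusted p under 0.05 and dashed lines at −1 and 1. GABRQ, GABRA4, GRIN2D and GABRR2 lay wholly beyond the dashed lines, and CHRNB4 and P2RX7 were called at smaller differences.

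**Figure D3:**
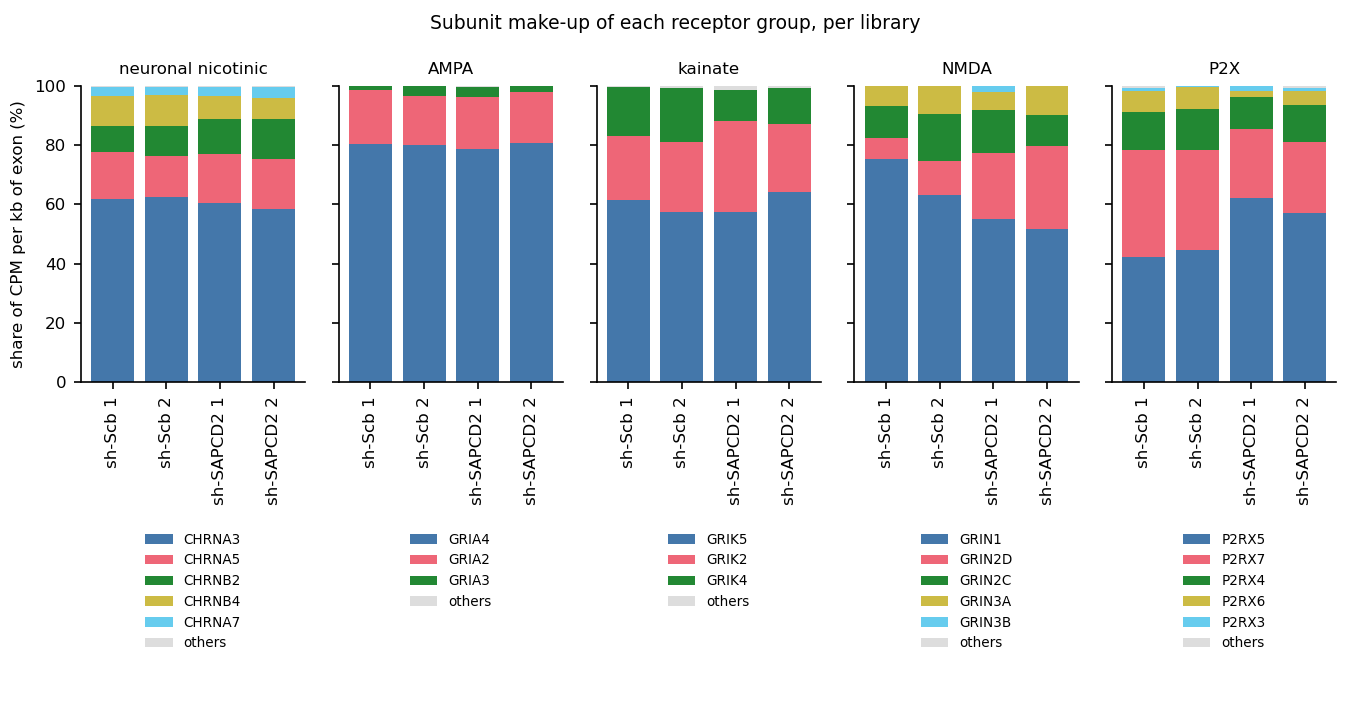
Share of each subunit in the summed CPM per kilobase of exon of its receptor group, in each library (subunits that stay under 1% are pooled as others). In both sh-SAPCD2 libraries CHRNB4, CHRNA3, GRIK4, GRIN1, P2RX4, P2RX6 and P2RX7 took smaller shares than in both sh-Scb libraries. CHRNB2, CHRNA5, CHRNA7, GRIN2D, P2RX3 and P2RX5 took larger ones, while the AMPA bars kept the same order.

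The level of a gene bears on whether a difference can be called, so the channel genes were set beside all tested genes of like level. At a mean of 20 CPM or more, 1 of 9 channel genes was called (11.1%), against 34.5% of all tested genes at that level. Between 5 and 20 CPM it was 1 of 7, against 26.2%, between 1 and 5 CPM 3 of 7, against 17.3%, and under 1 CPM 1 of 8, against 6.23%. The called genes with large folds, GABRQ, GABRA4, GRIN2D and GABRR2, all had a mean under 2 CPM. The 8 genes at 20 CPM or more that were not called had 95% intervals that lay between −0.53 and 0.81. These groups of genes are small, and no test was made of the shares.

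**Figure D4:**
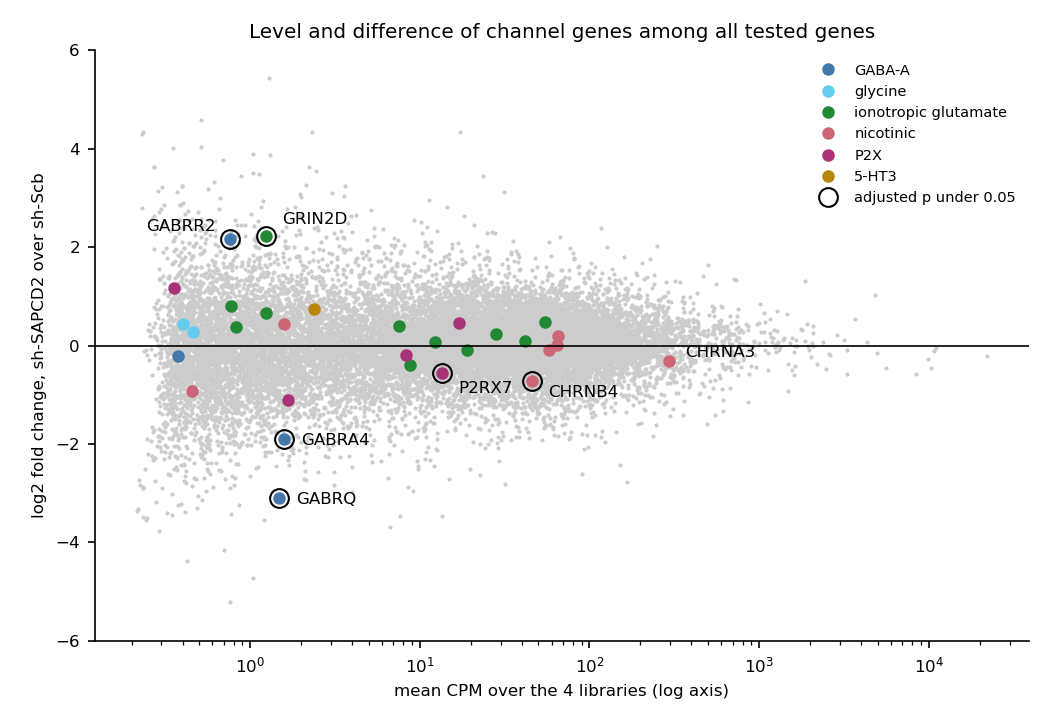
Mean CPM over the 4 libraries (log axis) against log2 fold change for all 18779 tested genes (grey, with 18 genes beyond the plotted limit of 6) and for 30 tested channel genes, coloured by family and circled where the adjusted p was under 0.05. The circled points with large differences sit at the left, at low levels, and the highly expressed CHRNA3 lies near the zero line at −0.31.

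Promoter windows were given in the RefSeq table for 47 of the 70 genes, among them 22 tested and all 6 called genes. GGGCGG, searched on both strands, was present in 4 of the 6 (CHRNB4, GABRQ, GRIN2D and P2RX7), in 13 of the 22 tested genes (59.1%) and in 44.95% of all 35116 windows in the table. CAGCTG was present in 3 of the 6 (CHRNB4, GABRQ and P2RX7, all lower in sh-SAPCD2), in 8 of the 22 tested genes (36.4%) and in 17.95% of all windows. Tested genes that held it and were not called were CHRNA10, GABRG3, GLRB, GRIK4 and P2RX3. The E2F motifs TTTCCCGC, TTTGGCGC, TTTCGCGC and TTTGCCGC were present in 0 of the 6 and in 3.32% of all windows, and CACGTG, the E-box of MYC proteins, in 0 of the 6 and in 7.26%. The arms of RE1, the site of the neuronal repressor REST, were searched as GGACAGC and TTCAGCACC. GGACAGC was found in 1 of the 6 (GABRQ), in 5 of the 47 and in 6.03% of all windows. TTCAGCACC was found in none of the 47 and in 0.376% of all windows. A match describes letters in the window and is not a binding site. With 6 genes these shares were not tested.

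An shRNA can lower transcripts that pair with its seed, so the 3′ untranslated regions were searched for sites of sh-SAPCD2 #1, taken from the study's methods. Sites of its guide arm and of its passenger arm, the complementary arm of the hairpin, were searched. The guide is shown because its seed, bases 2 to 8 in capitals, defines the site searched, ACCTTCA. The windows beneath it are the sites in the genes with the largest falls, with the site in capitals: GABRA4 at chr4:46924657-46924681 (minus strand) pairs with the seed, and GABRQ at chrX:152654707-152654731 (plus strand) pairs with guide bases 5 to 11.
sh-SAPCD2 guide: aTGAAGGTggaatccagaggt
GABRA4 site: ggtttccctACCTTCAaaaatatat
GABRQ site: ccaagcagcTCCACCTcactgatgg
Besides ACCTTCA, the 7-mer TCCACCT with its shifted form CCACCTA, and AGAGGTC with its shifted form GAGGTCA, were searched, which an earlier look at these data had singled out after values were seen. TCCACCT and CCACCTA were searched for the guide arm, and AGAGGTC and GAGGTCA for the passenger arm. The last A of CCACCTA and of GAGGTCA is not paired. In AGAGGTC and GAGGTCA, the C lies opposite the base just before the passenger arm in the hairpin. These forms thus pair with fewer bases of an arm than the 7-mer holds. GABRQ also held AGAGGTC and GAGGTCA, at overlapping positions that are not shown. The seed site ACCTTCA alone was present in 1 of the 4 channel genes that fell, 0 of the 2 that rose and 4 of the 25 not called. At least 1 of all the 7-mers, ACCTTCA included, was present in 3 of the 4 that fell, in 0 of the 2 that rose, and in 13 of the 25 not called. Those that fell with a match were GABRA4, GABRQ and P2RX7, not CHRNB4, and the match in P2RX7 was to GAGGTCA only. Over all tested protein-coding genes, the share with ACCTTCA was 14.9% of those lower, 12.4% of those higher and 12.1% of those not called. For at least 1 of all the 7-mers it was 51.7%, 33.4% and 38.0%. These pooled shares include 7-mers picked from these same data, so they cannot serve as evidence. The median 3′ untranslated region was 3746 bases long in the 4 channel genes that fell and 1579 bases in all genes that were lower. The part of such sites in the falls was not tested.

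Genes that serve these receptors were taken from lists compiled from general knowledge: subunits that assist channels, scaffolds, enzymes, transporters and the metabotropic receptors of the same transmitters. Of 135 such genes, 93 were tested, with 17 higher and 11 lower in sh-SAPCD2 at an adjusted p under 0.05. Together this was 30.1%, against 24.8% of all tested genes and 29.1% of the tested protein-coding genes. Among the glutamate receptor partners, 8 of 31 tested were higher and 4 lower, with a median log2 fold change of 0.23.

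Within that list, the genes of AMPA receptor auxiliary subunits CACNG4 and CNIH2 fell and CACNG8 rose, whereas others, such as CACNG2, CACNG7, CNIH3, GSG1L and SHISA6, did not pass the test (adjusted p of 0.1995 to 0.884). These last were named after their values were seen. CACNG4, the gene of the auxiliary subunit gamma-4, had 3959 and 3799 counts in sh-Scb and 1005 and 1313 in sh-SAPCD2 (log2 fold change −1.79, SE 0.106, adjusted p = 0.00201). CNIH2, a cornichon gene whose product slows the closing of AMPA receptors, fell from 484 and 411 counts to 37 and 84 (log2 fold change −2.95, SE 0.299, adjusted p = 0.00326). CACNG8, for auxiliary subunit gamma-8, rose from 19 and 23 counts to 107 and 118 (log2 fold change 2.38, SE 0.283, adjusted p = 0.00456). The libraries of these 3 genes were far apart between the groups. The 3′ untranslated region of CACNG4 holds the ACCTTCA site of the guide and 1 of the other 7-mers searched, that of CACNG8, which rose, holds 3 of the other 7-mers, and that of CNIH2, which fell, holds none. GRIP1, a scaffold that binds AMPA receptors, fell (log2 fold change −1.85, adjusted p = 0.00461), and DLGAP4, a postsynaptic scaffold gene, rose (0.68, adjusted p = 0.00781).

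The other lists held fewer tested genes. The share called was 50% for glutamate synthesis and transport, 50% for acetylcholine synthesis and transport, 40% for chloride carriers and 33.3% for nicotinic partners. It was 18.75% for metabotropic receptors, 12.5% for GABA-A partners and 0% for GABA synthesis and transport, against 24.8% of all tested genes. These lists are small, and the shares were not tested. Of 6 tested genes of glutamate synthesis and transport, 2 were higher and 1 lower: SLC1A3, a glutamate transporter, rose by 0.72 on the log2 scale, and GLUL, which turns glutamate to glutamine, fell by 0.57. Of 16 tested GABA-A partners, GABARAPL1, of the GABARAP family, rose by 1.47 and MAGT1 fell by 0.45. None of the 4 tested genes of GABA synthesis and transport passed the edgeR test, 0 had an unadjusted p under 0.05, and DESeq2 called 0. Of 5 chloride carriers, 1 was higher and 1 lower, and SLC12A4 rose by 0.88.

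Among 9 tested genes listed as nicotinic partners, LRP4 rose by 1.21 and LRRC4B by 1.25. LYPD6, of a protein family that binds nicotinic receptors, fell by 2.06 on the log2 scale. A place in this list does not show that a gene acts on nicotinic receptors in these cells. Of 6 tested genes of acetylcholine synthesis and transport, COLQ, which anchors acetylcholinesterase, rose by 0.90, whereas PRIMA1, another anchor of that enzyme, fell by 1.58 and SLC18A3, the vesicular transporter, by 1.32. Of 16 tested metabotropic receptors, GRM4 rose by 1.65 and the UDP receptor gene P2RY6 by 1.23, and GRM8 fell by 1.10. Several of these calls ended when 1 sh-Scb library was left out: those of COLQ, DLGAP4, GLUL, GRM4, GRM8, MAGT1, SLC12A4, SLC18A3 and SLC1A3, at adjusted p up to 0.379.

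**Figure D5:**
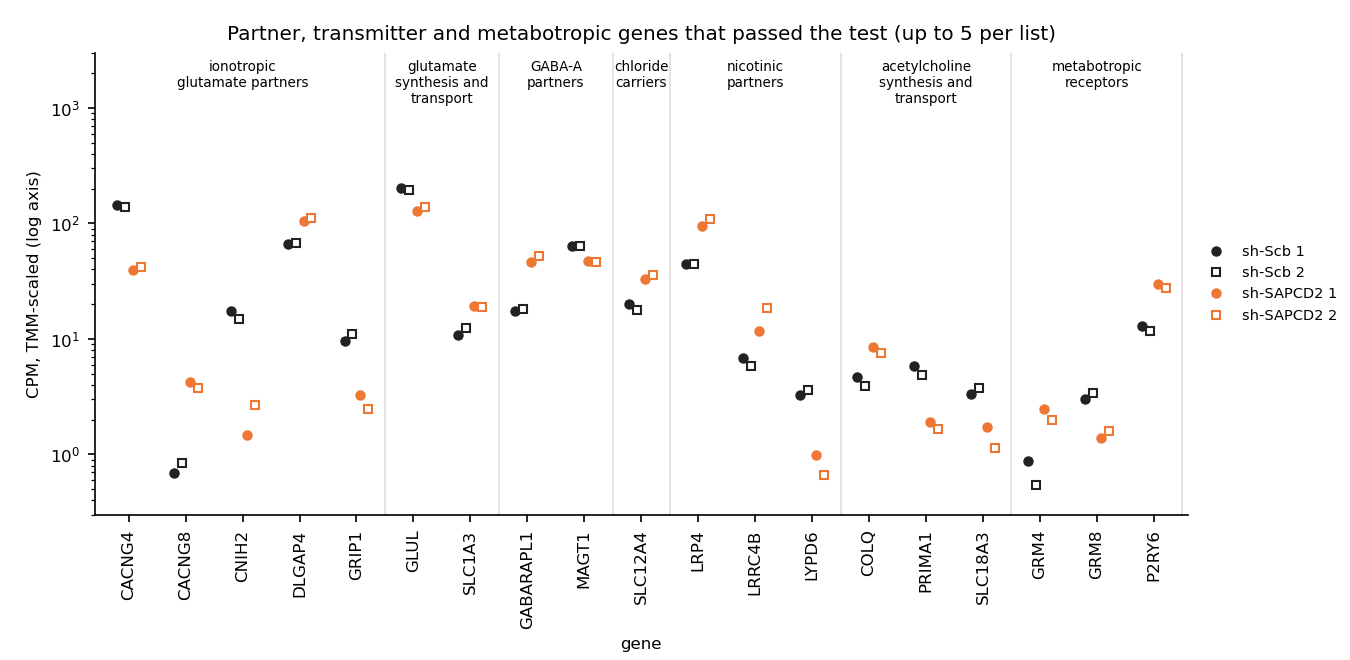
TMM-scaled CPM (log axis) per library for the partner, transmitter and metabotropic receptor genes that are named, with an adjusted p under 0.05, at most 5 with the smallest p from each list. In each gene shown, both sh-SAPCD2 libraries lie on the same side of both sh-Scb libraries, and the gap was widest for CNIH2, CACNG8, LYPD6, GRIP1 and CACNG4.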

How the data were processed

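RNA-seq data of 4 SK-N-BE(2) libraries were used, 2 of sh-Scb and 2 of sh-SAPCD2, as grouped by the labels. The authors aligned paired-end reads to hg38 with HISAT2 2.2.0, estimated abundance with StringTie and deposited one table of whole-number counts per Ensembl gene. The step from abundance to counts, the strand setting and the treatment of multi-mapped reads are not given in the sources used here, so reads of overlapping or near-identical genes may be counted for either. No column of the table was left unused (0 per-sample columns).

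Genes were kept by filterByExpr of edgeR (minimum count 10, minimum total 15), which left 18779. Counts were scaled by TMM and sh-SAPCD2 was compared with sh-Scb by the quasi-likelihood test of edgeR 4.0.16 in R 4.3.3, two-sided, and p-values were adjusted by Benjamini-Hochberg over the 18779 genes, with a threshold of 0.05. SE and 95% intervals are on the log2 scale and come from that fit. With 2 libraries a group, a mean ± SD rests on 2 values. CPM were also divided by the length of merged exons, or of the canonical transcript, in the GENCODE annotation. The steps were tested on simulated data.

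The study itself used DESeq2 with an added limit of 1 on the absolute log2 fold change, and that limit was applied here as a second count of calls. Alternatives were DESeq2 1.42.0, other scalings, other filters, a replicate block, a correction for GC content and length (loess, span 0.3), protein-coding genes alone and leaving out each library. The channel genes, the partner and marker lists and the motifs were chosen with earlier results of these data known. Tested channel genes could all be named, with values per library for those called and for the highest of each family per kilobase. Of each partner list at most 5 called genes with the smallest p were named. No amino acid sequences were used here, and values of some genes are not reported here, although counts over groups of genes include them. Promoters and 3′ untranslated regions were read from the RefSeq and GENCODE files of the same build.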

Additional observations from a re-analysis of the deposited data

How the results depend on the processing

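GABRQ and GABRA4 passed the threshold, at the same sign, in 13 of 13 alternatives, and GRIN2D had an adjusted p of at most 0.05 in each. Channel genes higher at adjusted p numbered 2, against 4 with the GC content and length correction, 4 when this was joined to the replicate block, 1 when genes that overlap another were set aside, and 1 to 5 when 1 library was left out. Those lower numbered 4, and 2 to 6 when 1 library was left out. With the fold limit, 2 were higher, against 1 with DESeq2, 1 at a mean of at least 1 CPM, 1 without overlapping genes, and 1 to 3 without 1 library, and 2 were lower, against 4 with adjusted p alone. Partner genes higher numbered 17, against 9 without the filter and 7 to 26 without 1 library, and those lower 11, against 7 and 6 to 16. SAPCD2 stayed at −0.91 without the filter, with an adjusted p of 0.0749. Over all genes, 4665 were called, against 2261 without the filter, 7509 with the GC content and length correction, 7388 when joined to the block and 2328 to 8410 without 1 library. The causes were not tested.

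The replicate numbers did not pair the libraries: deviations of same-numbered libraries correlated at −0.0188. The fit with the replicate block called 3 channel genes higher and 5 lower, with GRIK2 (adjusted p = 0.0472) and P2RX6 (0.0225) added, and 5561 calls over all genes.

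Some log2 fold changes near 0 changed sign. With the GC content and length correction, alone or with the block, GRIK5 was at −0.08 and CHRNA5 at 0.05. CHRNA7 was at −0.01 with library totals, −0.00 at a mean of at least 1 CPM and −0.02 with protein-coding genes. Without 1 library, the ranges were −1.05 to 0.36 for GABRG3, −0.12 to 1.08 for GLRA1, −0.08 to 0.53 for GLRB, −0.11 to 0.24 for GRIA2, −0.23 to 1.08 for GRIA3, −0.06 to 0.22 for GRIA4, −0.28 to 0.07 for GRID1, −1.58 to 0.29 for CHRNA10, −0.18 to 0.01 for CHRNA5 and −0.10 to 0.11 for CHRNA7. In these fits the lone library of a group was assumed to vary like the other group.

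With 2 libraries a group, a shared culture, infection or day cannot be told apart from the knockdown, and 39 of 70 genes were too low to be tested.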

Other observations

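Near the chosen genes, the same symbols also matched 4 genes that are not protein-coding and were not taken. GABRG3-AS1 had no counts. GRIK1-AS1 held 0 and 1 counts in sh-Scb and 2 and 2 in sh-SAPCD2, GRID1-AS1 held 0, 3, 1 and 1, and GLRA4, a glycine receptor gene that is a pseudogene in human, held 0, 2, 0 and 2, all too low for a test. Of the genes that may share reads with channel genes, 3 were measured beside them. CHRFAM7A, the fusion gene related to CHRNA7, had 491 and 445 counts in sh-Scb and 491 and 585 in sh-SAPCD2 (log2 fold change 0.16, adjusted p = 0.433 in edgeR). NUP98, a nucleoporin gene that overlaps CHRNA10, had 4613 and 4585 against 3726 and 4427 counts (log2 fold change −0.21, adjusted p = 0.154). P2RX5-TAX1BP3, the readthrough gene, had 79 and 78 against 79 and 196 counts (log2 fold change 0.72, adjusted p = 0.187).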
